A study of Homo sapiens with 12 samples.

Results

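The response of K562 cells to USP15 knockdown was compared between 2 sets of libraries of the same cell line, which make up 8 of the 12 libraries of the series. Set 1 holds replicates 1 and 2 and set 2 holds replicates 3 and 4, each set with 2 siUSP15 and 2 siCtrl libraries. K562 is an established human chronic myeloid leukemia line that carries the BCR-ABL1 fusion and expresses embryonic and fetal globins. The cells were grown in RPMI medium with fetal calf serum, transfected with siRNAs against USP15 (siUSP15) or with non-targeting siRNAs (siCtrl), and lysed for total RNA 72 h later. The split follows the replicate numbers; no source used here says what separates replicates 1 and 2 from replicates 3 and 4. The labels name the deposited K562 table as batch corrected without saying what the batches were, the columns analysed here hold whole-number counts, and the column names of all 8 carry the same prefix. Replicates are nowhere described as separate cultures, and the spread behind each p-value may be technical.

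USP15 is a deubiquitinating enzyme, which removes ubiquitin chains from other proteins and thereby changes how long they last or what they bind. An siRNA lowers the RNA of its target for some days, so the genes that move after transfection hold direct and indirect followers of the loss together with any effect of the siRNA on other RNAs. The comparison asks, gene by gene, where the same siRNAs in the same line gave changes of unequal size. The log2 fold change of siUSP15 over siCtrl in set 1 minus that in set 2, called the difference, is positive where the change in set 1 was the higher one.

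The libraries held 23020401 to 43566543 counts over 28328 genes, siUSP15 replicate 2 being the deepest, and 14337 genes had enough counts to be tested. The first principal component of log2 CPM (CPM is the count relative to the library total, scaled by TMM factors) took 61.4% of the variance and separated the sets, and the second, with 13.6%, separated the siRNAs within each set. Along the first component the siUSP15 libraries of set 1, at -20.8 and -12.1, lay nearer to set 2, which spanned 25.7 to 30.6, than the siCtrl libraries of set 1, at -40.7 and -37.9. All 15 K562 markers (globins, GATA1, TAL1, ABL1 and others) were expressed in the line. Of the markers of other cell types, 4 of 10 lymphoid, 2 of 10 epithelial, 3 of 10 fibroblast and endothelial and 6 of 21 granule protein genes had enough counts to be tested. The highest of these were SRGN, of the granule list, with a mean of 114 CPM, and EPCAM, an epithelial marker, with 91.2 CPM. The lymphoid markers summed to 20.3 and 16.3 CPM in siUSP15 and 25.4 and 22.9 CPM in siCtrl libraries of set 1. In set 2 they summed to 6.68 and 7.72 CPM in siUSP15 and 6.83 and 7.18 CPM in siCtrl libraries. CD3D led them with a mean of 9.83 CPM, and MS4A1 was not among the 28328 genes. Mitochondrially encoded genes took 5.13% and 5.43% of counts in siUSP15 and 4.83% and 4.98% in siCtrl libraries of set 1, against 3.27% and 3.27% in siUSP15 and 3.20% and 3.26% in siCtrl libraries of set 2. The part of these gaps in the results below was not tested.

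**Figure D1:**
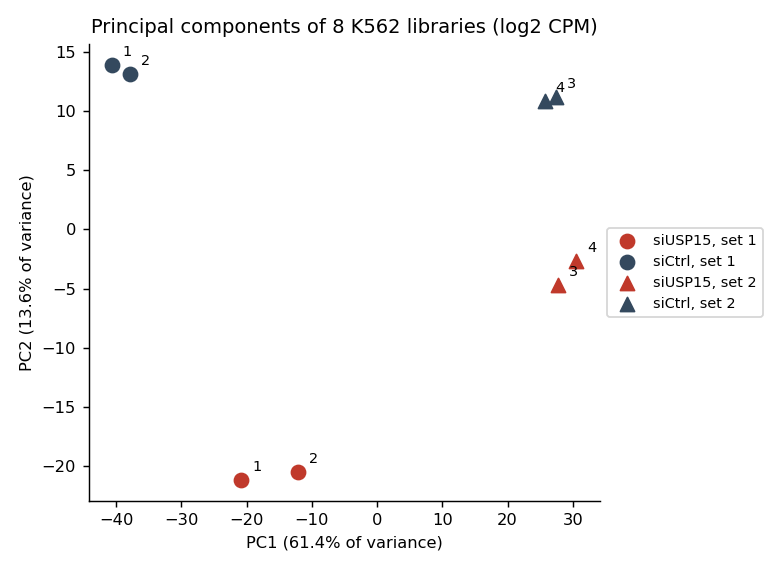
Principal components of log2 CPM of the 8 K562 libraries; the axes are the first and second component with their share of the variance, colours mark the siRNA, shapes the set and labels the replicate. The sets lie apart on the first axis, and the siUSP15 and siCtrl libraries of set 1 are farther from each other than those of set 2.

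The targeted gene fell in both sets, and further in set 1. USP15 (ENSG00000135655, chr12:62260338-62417431, hg38) had 116 and 134 CPM in siUSP15 and 269 and 275 CPM in siCtrl libraries of set 1. In set 2 it had 191 and 197 CPM in siUSP15 and 343 and 330 CPM in siCtrl libraries. The siRNA groups did not overlap in either set, and the siUSP15 libraries of set 2 lay above those of set 1. The RNA left was 46.0% ± 4.92 in set 1 and 57.6% ± 1.94 in set 2 (SD carried from both means, n = 2 libraries each). The log2 fold change was -1.11 in set 1 and -0.80 in set 2, a difference of -0.32 ± 0.08 (SE) with an adjusted p of 0.013 (edgeR's quasi-likelihood test, Benjamini-Hochberg over all genes tested). That call was lost without siCtrl replicate 1, 2 or 4. An exact 2-sided permutation of the siRNA labels within sets gave p = 0.556, in a design that cannot go below 0.0556. Shuffling the labels also removes the fall that both sets shared, so the arrangements do not stand for equal falls. The permutation therefore cannot decide whether the falls differed. The siUSP15 library of replicate 3, whose column name lacks a digit that the other siUSP15 columns have, had a USP15 level beside that of replicate 4.

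Many more genes changed in set 1 than in set 2. With siUSP15, 5116 genes passed the adjusted p of 0.05 in set 1 (35.7% of those tested), 2506 higher (17.5%) and 2610 lower (18.2%). In set 2, 329 genes passed (2.29%), 159 higher (1.11%) and 170 lower (1.19%), while 2406 had an unadjusted p under 0.05. The median size of the log2 fold change over all genes was 0.17 in set 1 and 0.09 in set 2, with median standard errors of 0.07 and 0.08. Both errors came from the same fit, in which the sets shared the estimate of each gene's spread. The standard errors therefore cannot show whether the sets differed in error. The count of set 1 was 3105 with siCtrl replicate 1 left out and 3229 with siUSP15 replicate 2 left out. That of set 2 was 40 with siCtrl replicate 3 left out, 92 with siCtrl replicate 4, 109 with siUSP15 replicate 4, 217 with either siCtrl library of set 1, 540 with siUSP15 replicate 2 and 567 with siUSP15 replicate 1.

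The difference between the sets passed for 1791 genes (12.5%), 970 higher (6.77%) and 821 lower (5.73%) in set 1 than in set 2. For 102 of them it exceeded 1 on the log2 scale, 16 higher and 86 lower. The count moved by over 1.5 times when any library but siUSP15 replicate 3 was left out. Among the siCtrl libraries, leaving out replicate 1 gave 479 genes, replicate 2 964, replicate 3 630 and replicate 4 1177. Among the siUSP15 libraries, leaving out replicate 1 gave 2794, replicate 2 760 and replicate 4 837. Every siUSP15 minus siCtrl pair of set 1 lay beyond every pair of set 2 in 1787 of the 1791 genes (99.8%), against 41.7% of all genes tested. DESeq2 called 1132 genes, 1105 of which were among the 1791.

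Most of these genes had moved in set 1 and stayed near their siCtrl level in set 2. Of the 1791, 1600 (89.3%) passed in set 1 and not in set 2, 72 passed in both in the same direction, 5 passed in both in opposite directions, 29 passed in set 2 alone and 85 in neither. The absolute change was larger in set 1 for 1671 (93.3%), against 68.2% of all genes tested. The gap between the sets was also narrower with siUSP15 than with siCtrl for 1554 of them (86.8%), against 67.1% of all genes. These shares use the same libraries as the difference itself and are a description.

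The fold changes of the sets had the same sign for 8601 of the 14337 genes tested (59.99%) and for 813 of the 1791 genes with a called difference (45.4%). Of the 329 genes that passed in set 2, 298 (90.6%) had the same sign in set 1 and 254 (77.2% of set 2's and 4.96% of set 1's calls) passed there too, 249 in the same direction. Over those 249 the median ratio of the log2 fold change in set 2 to that in set 1 was 0.70, and over all 5116 genes called in set 1 it was 0.19. Across the 14337 genes the fold changes of the sets had a Pearson r of 0.25 and a Spearman rho of 0.29; genes are not independent replicates, and the genes share libraries within a set.

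**Figure D2:**
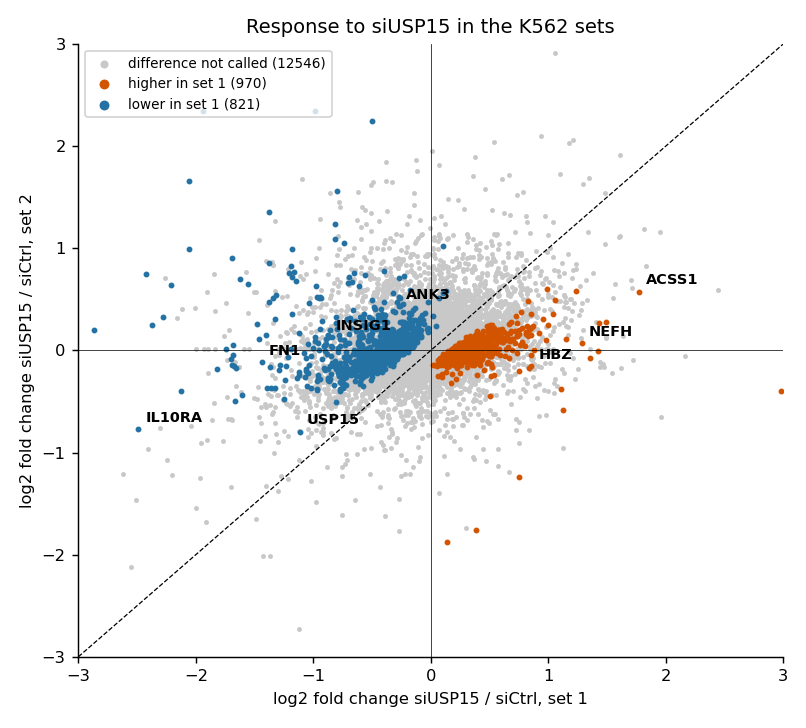
Log2 fold change of siUSP15 over siCtrl in set 1 (x) against set 2 (y) for each gene tested, coloured where the difference between the sets passed an adjusted p of 0.05; the dashed line marks equal change, and 7 genes lie outside the axes. The coloured genes spread along the horizontal axis, near a change of 0 in set 2.

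The 10 named negative differences were, NOTCH2NL excepted, of genes at their highest in the siCtrl libraries of set 1. FN1 (fibronectin, an extracellular matrix protein; chr2:215360440-215436172) had 14.9 and 12.8 CPM in siUSP15 and 37.997 and 36.1 CPM in siCtrl libraries of set 1. It had 17.1 and 19.5 CPM in siUSP15 and 18.6 and 20.9 CPM in siCtrl libraries of set 2. The siRNA groups were apart in set 1 and overlapped in set 2, for a difference of -1.32 ± 0.12 (adjusted p 1.9e-05). MYO3B, an unconventional myosin, had the negative difference of largest size among genes with an average log2 CPM of at least 1: 3.66 and 3.10 CPM in siUSP15 and 9.30 and 7.99 CPM in siCtrl libraries of set 1, against 1.05 and 1.27 CPM in siUSP15 and 0.937 and 0.730 CPM in siCtrl libraries of set 2. Its difference was -1.85 ± 0.32 (adjusted p 0.0024). IL10RA, the ligand-binding chain of the interleukin-10 receptor, had 1.48 and 1.21 CPM in siUSP15 and 8.07 and 6.70 CPM in siCtrl libraries of set 1. In set 2 it had 0.545 and 0.807 CPM in siUSP15 and 0.976 and 1.31 CPM in siCtrl libraries, and its difference of -1.72 ± 0.39 (adjusted p 0.011) was lost without siUSP15 replicate 4. Both genes were several times more abundant in the siCtrl libraries of set 1 than in any library of set 2.

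YPEL4 differed by -1.64, DCHS2 (a protocadherin) by -1.61, CORO1A (coronin 1A, an actin regulator of blood cells) by -1.56, NFATC4 (a calcium-regulated transcription factor) by -1.55, RP11-86K22.2 (an intronic transcript) by -1.52 and ERBB3 (a receptor of the EGF receptor family) by -1.29. The siCtrl libraries of set 1 held the highest levels of each of these 6 genes, and the calls stood without any 1 library. NOTCH2NL differed by -1.34 (adjusted p 0.023) without passing in either set, with log2 fold changes of -0.67 in set 1 and 0.67 in set 2 and its highest level, 4.03 CPM, in siUSP15 replicate 4; it shares sequence with NOTCH2, its call was lost without any 1 of 6 libraries, and its value moved by over 1.5 times without siUSP15 replicate 4.

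The 10 positive differences of largest size were, ZIK1 excepted, of genes at their lowest in the siCtrl libraries of set 1. NEFH, the heavy neurofilament subunit (chr22:29480230-29491390), had 53.2 and 65.8 CPM in siUSP15 and 23.9 and 25.5 CPM in siCtrl libraries of set 1. It had 91.2 and 80.5 CPM in siUSP15 and 84.1 and 79.3 CPM in siCtrl libraries of set 2. The rise in set 1 left it under every library of set 2, and the difference was 1.21 ± 0.12 (adjusted p 2.6e-05). ZIK1, a zinc finger gene on chromosome 19, differed from this pattern in its level: 5.10 and 5.45 CPM in siUSP15 and 1.86 and 1.92 CPM in siCtrl libraries of set 1, against 2.21 and 2.21 CPM in siUSP15 and 1.87 and 1.77 CPM in siCtrl libraries of set 2. Its siCtrl levels were alike in the sets and its difference was 1.21 ± 0.25 (adjusted p 0.0067). ACSS1 (mitochondrial acetyl-CoA synthetase), ZNF416, ZNF583, CNTF, HBZ, RP11-474N24.6, RP11-38M15.11 and ZNF17 followed with differences of 0.90 to 1.19. CNTF lost its call without any 1 of 6 libraries, ACSS1 and RP11-38M15.11 without any 1 of 4, RP11-474N24.6 without siUSP15 replicate 2 or siCtrl replicate 1, and ZNF416 without siCtrl replicate 1 or 3.

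Only 5 genes passed in both sets with opposite signs. EPAS1 (HIF-2 alpha, a hypoxia-responsive transcription factor) had 52.4 and 50.9 CPM in siUSP15 and 64.3 and 57.8 CPM in siCtrl libraries of set 1, against 48.7 and 46.4 CPM in siUSP15 and 37.7 and 40.8 CPM in siCtrl libraries of set 2. The log2 fold changes were -0.24 in set 1 and 0.28 in set 2. NABP1 (a single-stranded DNA binding protein) had -0.18 and 0.36, ANK3 (ankyrin-G) -0.27 and 0.43, and LGALS1 (galectin-1) -0.21 and 0.24, each with the set 1 value given first. HBA1, an alpha globin gene that shares reads with HBA2, ran the other way with 0.21 in set 1 and -0.28 in set 2. For all 5 the siRNA groups did not overlap in either set and the calls of the difference stood without any 1 library.

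Genes of sterol synthesis fell in set 1 and did not in set 2. Cholesterol is built from acetyl-CoA through HMG-CoA and mevalonate, and the genes of the pathway are switched on together by the transcription factor SREBP2 when sterols are scarce. Of 33 listed genes of cholesterol and fatty acid synthesis and uptake, all tested, 21 fell and 4 rose with siUSP15 in set 1, and none fell and 2 rose in set 2 (by edgeR, DESeq2 and limma-voom; 1 fell at an unadjusted p under 0.05). Over all genes tested, 18.2% fell and 17.5% rose in set 1, and 1.19% fell and 1.11% rose in set 2. The difference passed for 18 of the list (54.5%, beside 5.73% of all genes called lower), all lower in set 1. None was higher even at an unadjusted p under 0.05. The median difference was -0.29 over the list against -0.01 over all genes. DESeq2 had 14 lower and limma-voom 18. Leaving out 1 library gave 9 to 20 members lower, the fewest without siCtrl replicate 1 (9), siCtrl replicate 3 (10) and siUSP15 replicate 2 (12), and none higher. The list was chosen with results of these data known.

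INSIG1, which holds the SREBP escort protein in the endoplasmic reticulum (chr7:155297776-155310235), had 351 and 280 CPM in siUSP15 and 615 and 535 CPM in siCtrl libraries of set 1. It had 238 and 223 CPM in siUSP15 and 210 and 212 CPM in siCtrl libraries of set 2. The difference was -1.003 ± 0.11 (adjusted p 7.9e-05), and the siCtrl libraries of set 1 held over 2 times the level of any library of set 2. MSMO1, a sterol C4-methyl oxidase (chr4:165327623-165343160), had 81.3 and 72.0 CPM in siUSP15 and 145 and 138 CPM in siCtrl libraries of set 1, against 60.1 and 54.3 CPM in siUSP15 and 56.8 and 53.02 CPM in siCtrl libraries of set 2. Its difference was -0.95 ± 0.09 (adjusted p 1.9e-05). HMGCS1, which makes HMG-CoA (chr5:43289395-43313512), had 273 and 260 CPM in siUSP15 and 448 and 417 CPM in siCtrl libraries of set 1. In set 2 it had 390 and 372 CPM in siUSP15 and 402 and 393 CPM in siCtrl libraries, so that here the siCtrl levels of the sets were near each other and the siUSP15 libraries of set 1 stood low. The difference was -0.64 ± 0.06 (adjusted p 2e-05).

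Other members with a called difference were TM7SF2, STARD4, FASN, FDFT1, IDI1, FADS1, MVK, SC5D, MVD, SQLE, SREBF2, SCD and FDPS, from -0.50 for TM7SF2 to -0.22 for FDPS. Not all of the pathway fell in set 1: LSS, which makes lanosterol, rose in both sets (0.17 in set 1 and 0.27 in set 2). Summed over the list, the genes held 7750 and 7152 CPM in siUSP15 and 8991 and 8796 CPM in siCtrl libraries of set 1, against 6998 and 7038 CPM in siUSP15 and 6645 and 6832 CPM in siCtrl libraries of set 2. The siCtrl libraries of set 1 were the highest of the 8.

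The promoters of the 3 members with the lowest p in the list are shown. All 3 fell with siUSP15 in set 1 and had no called change in set 2, though their levels across the libraries differed in pattern. Sequences are from RefSeq (GRCh38.p14, from 250 bases before to 50 after the transcription start, first entry of each gene), in lower case with motif matches in capitals. Capitals mark CCAAT or its reverse ATTGG, bound by NF-Y, and in INSIG1 also CACNCCAC or its reverse GTGGNGTG, a short form of the sterol element that SREBP binds. INSIG1 lies on the plus strand at chr7:155297628-155297927, HMGCS1 on the minus strand at chr5:43313363-43313662 and MSMO1 on the plus strand at chr4:165327419-165327718.
INSIG1: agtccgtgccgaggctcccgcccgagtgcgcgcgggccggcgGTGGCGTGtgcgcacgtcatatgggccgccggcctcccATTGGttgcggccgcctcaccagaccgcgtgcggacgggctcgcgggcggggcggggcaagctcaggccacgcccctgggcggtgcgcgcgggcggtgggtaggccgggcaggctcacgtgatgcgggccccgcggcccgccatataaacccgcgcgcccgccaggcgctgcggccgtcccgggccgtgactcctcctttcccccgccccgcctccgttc
HMGCS1: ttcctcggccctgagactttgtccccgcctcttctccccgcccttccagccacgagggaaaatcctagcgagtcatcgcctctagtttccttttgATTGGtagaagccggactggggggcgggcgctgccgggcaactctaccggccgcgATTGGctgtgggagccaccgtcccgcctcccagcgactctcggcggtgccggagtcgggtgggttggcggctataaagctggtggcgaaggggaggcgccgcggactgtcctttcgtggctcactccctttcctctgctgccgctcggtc
MSMO1: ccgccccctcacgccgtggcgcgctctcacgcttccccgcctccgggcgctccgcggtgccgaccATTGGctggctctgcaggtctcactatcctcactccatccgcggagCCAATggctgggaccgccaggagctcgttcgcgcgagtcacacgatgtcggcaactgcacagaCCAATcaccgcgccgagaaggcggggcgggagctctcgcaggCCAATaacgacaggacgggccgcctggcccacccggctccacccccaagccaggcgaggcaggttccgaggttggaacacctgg

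RefSeq promoters matched 25 of the 33 members. CCAAT stood in 17 of them (68%), against 35.7% of 27305 promoters, and in 11 of the 13 with a called lower difference. CACNCCAC stood in 4 (INSIG1, SC5D, SCD and SREBF2; 16%, against 5.74%), all of which had a called lower difference. Both motifs were chosen after the list's values were seen, and a match is a description of the letters only.

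Ribosome biogenesis genes rose in set 1 and not in set 2. Their products, which cut, modify and fold the ribosomal RNA precursor in the nucleolus, were listed with 43 genes, of which 35 rose and 1 fell in set 1 while none passed in set 2 by edgeR, DESeq2 or limma-voom (1 higher and 2 lower at an unadjusted p under 0.05). Over all genes tested, 17.5% rose and 18.2% fell in set 1, and only 2.29% passed in set 2, so none of 43 there says little alone. The list's median log2 fold change was 0.22 in set 1 and -0.02 in set 2. The difference passed for 26 (60.5%, beside 6.77% of all genes called higher), all higher, with a median of 0.23, and 27 by DESeq2. When 1 library was left out 8 to 33 passed, all higher, the fewest without siCtrl replicate 1 (8), siCtrl replicate 3 (11), siUSP15 replicate 2 (12) and siUSP15 replicate 4 (15). UTP14A, a subunit of the early processing complex (chrX:129906121-129929761), had 77.6 and 85.1 CPM in siUSP15 and 53.9 and 58.2 CPM in siCtrl libraries of set 1. It had 103 and 108 CPM in siUSP15 and 107 and 105 CPM in siCtrl libraries of set 2. Its difference was 0.55 ± 0.07 (adjusted p 4.5e-04), and the siCtrl libraries of set 1 were the lowest of the 8. RRP9 differed by 0.47, PES1 by 0.37 and DKC1, the pseudouridine synthase of small nucleolar particles, by 0.31, and none of the 4 calls was lost without any 1 library.

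Spliceosome, SR and hnRNP genes had 25 of 65 members higher (38.5%, beside 6.77% of all genes called higher). None was lower by edgeR, DESeq2 or limma-voom, and 1 was lower at an unadjusted p under 0.05. The median difference was 0.15, and 0.10 to 0.18 without 1 library, with the fewest members called without siCtrl replicate 1. PRPF19 differed by 0.41, HNRNPM by 0.34 and HNRNPU by 0.27.

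Heat shock proteins had 9 of 22 members higher by edgeR (40.9%, beside 6.77% of all genes) and 1 lower at an unadjusted p under 0.05. Their median difference was 0.16, and 0.15 to 0.21 without 1 library, with the fewest called without siCtrl replicate 1. HSPA8, the constitutive HSP70, had 3543 and 3730 CPM in siUSP15 and 2573 and 2776 CPM in siCtrl libraries of set 1, against 3947 and 3772 CPM in siUSP15 and 3967 and 3937 CPM in siCtrl libraries of set 2, a difference of 0.48 ± 0.05. The siCtrl libraries of set 1 again held the least. Proteasome subunits had 10 of 41 higher and 1 lower (26.8% called, beside 12.5% of all genes). Their median difference was 0.12, and 0.09 to 0.16 without 1 library, with the fewest called without siCtrl replicate 1. PSMB2 differed by 0.37. PSME4, a nuclear activator, was the 1 lower at -0.30, a call lost without siCtrl replicate 1 or 3 or siUSP15 replicate 4. Mitochondrial ribosomal proteins had 9 of 75 called, all higher (12%), beside 6.77% of all genes called higher and 12.5% in either direction. Their median difference was 0.10 (0.09 to 0.12 without 1 library), and the fewest were called without siCtrl replicate 1. Cytosolic ribosomal proteins had 4 of 79 called, all higher (5.06%), under both shares. The difference lay above 0 for 64 of the 75 and 63 of the 79, beside 48.8% of all genes. GAPDH, often used as a reference gene, differed by 0.36 ± 0.05 (adjusted p 3.3e-04), rising by 0.29 in set 1 and having -0.07 in set 2.

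**Figure D3:**
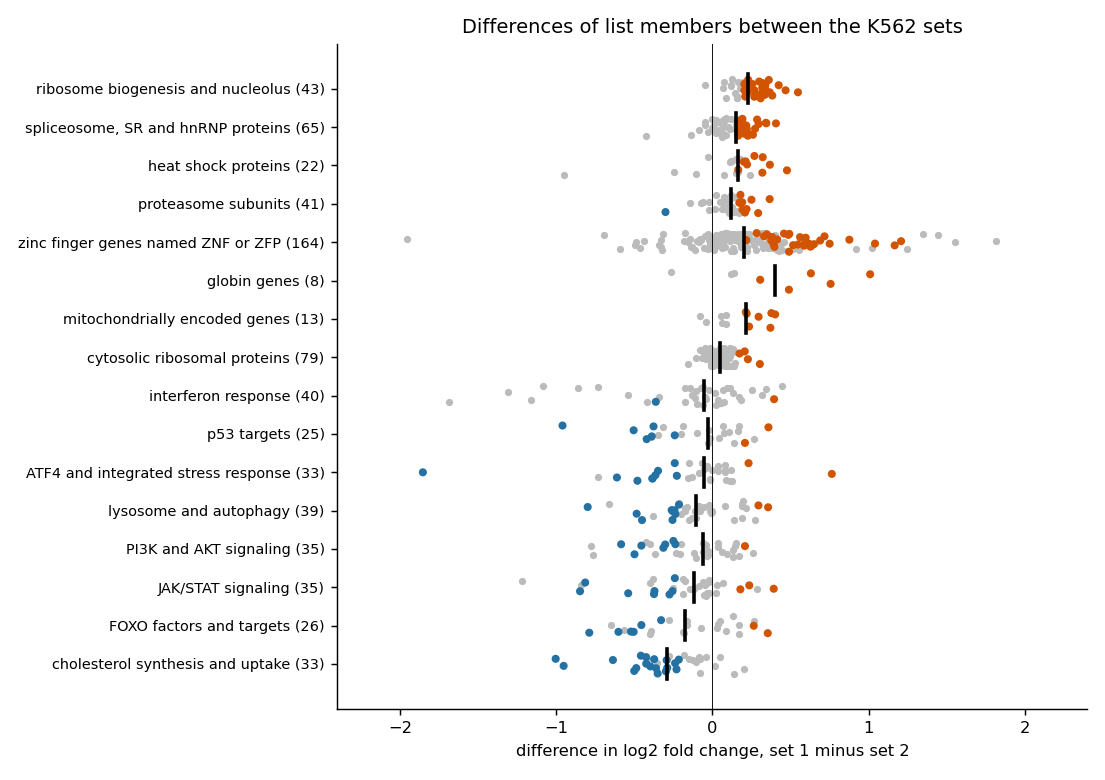
Difference in log2 fold change (set 1 minus set 2) of each tested member of 16 gene lists (points), with the number tested in parentheses, the median as a bar and colour where the difference passed. Ribosome biogenesis, spliceosome and globin members lie mostly above 0, cholesterol and FOXO members mostly below.

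Zinc finger genes rose in set 1, and how many had a called difference depended on the method. These genes, most of them repressors of the KRAB family that bind transposon-derived DNA, lie in clusters on chromosome 19. Of 187 listed, 164 were tested, and 88 rose and 6 fell in set 1, while 3 rose in set 2 and, by edgeR, none fell there (34 rose and 2 fell at an unadjusted p under 0.05). Of all genes tested, 17.5% rose and 18.2% fell in set 1, and 1.11% rose and 1.19% fell in set 2. By edgeR the difference passed for 30 zinc finger genes (18.3%), all higher, beside 12.5% of all genes in either direction and 6.77% higher. With limma-voom 30 passed, beside 1820 of 14337 genes in all, and with DESeq2 13, beside 1132. The median difference was 0.20, and 0.20 to 0.25 with 1 library left out. The fewest members were called without siCtrl replicate 1. ZNF551 had 40.8 and 39.5 CPM in siUSP15 and 24.9 and 24.7 CPM in siCtrl libraries of set 1, against 37.8 and 38.6 CPM in siUSP15 and 39.3 and 37.0 CPM in siCtrl libraries of set 2. Its difference was 0.69 ± 0.08 (adjusted p 9.2e-05), its siUSP15 level in set 1 reaching that of set 2. ZNF850 rose in both sets, by 1.06 and by 0.50 in set 2, and still differed by 0.56. By chromosome, 117 of 1103 genes on chromosome 19 (10.6%) had a called higher difference and 45 (4.08%) a lower one. Outside genes named ZNF or ZFP it was 85 of 885 (9.60%) and 44 (4.97%). Over all genes tested the shares were 6.77% higher and 5.73% lower.

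Globin genes, the erythroid product that K562 cells make in small amounts, differed in 5 of 8 members, all higher (62.5%, beside 6.77% of all genes). Their median difference was 0.40, and 0.30 to 0.50 without 1 library, with the fewest called without siUSP15 replicate 2. HBZ, embryonic zeta globin (chr16:152687-154503), had 134 and 199 CPM in siUSP15 and 92.3 and 93.7 CPM in siCtrl libraries of set 1. It had 293 and 235 CPM in siUSP15 and 299 and 291 CPM in siCtrl libraries of set 2, where the siRNA groups overlapped. Its difference was 1.01 ± 0.17 (adjusted p 0.0021), which was not called with a robust estimate of the spread. HBA2 differed by 0.76 and HBG1, fetal gamma globin that shares reads with HBG2, by 0.31, a call lost without siUSP15 replicate 2, siCtrl replicate 2 or siUSP15 replicate 4. The erythroid list had 5 of 37 higher and 1 lower (16.2% called, beside the 12.5% of all genes), with 0 to 13 higher by edgeR without 1 library and the fewest without siUSP15 replicate 2. SLC4A1, the red cell anion exchanger, differed by 0.76, and AQP1, a water channel, rose in both sets (1.23 and 0.58) and differed by 0.65; their calls were lost without any 1 of 3 and 5 libraries. Mitochondrially encoded genes had 7 of 13 higher (53.8%, beside 6.77% of all genes). Their median difference was 0.21, and 0.13 to 0.28 without 1 library, with the fewest called without siCtrl replicate 1. MT-CYB had 3046 and 3254 CPM in siUSP15 and 2209 and 2499 CPM in siCtrl libraries of set 1. It had 1995 and 2065 CPM in siUSP15 and 1954 and 1988 CPM in siCtrl libraries of set 2. Here every library of set 1 was above every library of set 2, so that the rise widened the gap between the sets.

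The JAK/STAT list, the pathway by which cytokine receptors activate STAT factors, had 3 of 35 higher and 8 lower (31.4% called, beside 12.5% of all genes; 2 to 9 lower without 1 library, the fewest without siCtrl replicate 1). In set 1 17 fell and in set 2 2, beside 18.2% and 1.19% of all genes. SOCS3, a STAT-induced inhibitor of the pathway, had 33.3 and 31.5 CPM in siUSP15 and 60.1 and 58.9 CPM in siCtrl libraries of set 1, against 11.6 and 9.77 CPM in siUSP15 and 11.2 and 10.8 CPM in siCtrl libraries of set 2. Its difference was -0.85 ± 0.11 (adjusted p 3.2e-04), and all 4 libraries of set 1 were above all of set 2. PIM1, a STAT5-induced kinase, differed by -0.54 ± 0.08. CISH, another induced inhibitor, differed by -0.37, a call lost without siCtrl replicate 1 or 3.

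The promoter of CISH, on the minus strand at chr3:50611725-50612024 (GRCh38.p14, RefSeq), is shown because it holds 4 matches to TTCNNNGAA, the form STAT dimers bind, which reads the same on both strands and is in capitals.
CISH: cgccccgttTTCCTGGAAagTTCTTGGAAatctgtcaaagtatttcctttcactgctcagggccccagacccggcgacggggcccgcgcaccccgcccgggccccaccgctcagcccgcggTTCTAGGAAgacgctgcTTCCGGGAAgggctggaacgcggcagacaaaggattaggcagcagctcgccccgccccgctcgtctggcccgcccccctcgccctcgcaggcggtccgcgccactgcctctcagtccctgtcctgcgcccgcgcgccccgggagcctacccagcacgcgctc

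That motif stood in 2 of the 28 JAK/STAT members with a promoter in the table (7.14%), against 7.88% of all promoters, so the list as a group did not hold it more often. The FOXO form GTAAACA stood in 3 of 22 promoters of FOXO factors and targets (13.6%, against 3.41%), and the ATF4 form TGATGNAA in 5 of 26 of the ATF4 list (19.2%, against 3.67%). Both lists were drawn up in part from known targets of these factors.

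The PI3K and AKT list had 1 of 35 higher and 7 lower (22.9% called, beside 12.5% of all genes; 3 to 11 lower without 1 library, the fewest without siCtrl replicate 1). PIK3CB, a catalytic subunit of the kinase (chr3:138652699-138834938), had 97.8 and 91.7 CPM in siUSP15 and 173 and 175 CPM in siCtrl libraries of set 1. It had 92.0 and 96.1 CPM in siUSP15 and 115 and 116 CPM in siCtrl libraries of set 2. It fell in both sets to like levels, and the difference of -0.58 ± 0.06 (adjusted p 5e-05) was in how far the siCtrl levels stood above them. PIK3CD differed by -0.50 and RICTOR, of the mTORC2 complex, by -0.45. FOXO factors and targets, which PI3K signaling holds off, had 2 of 26 higher and 6 lower (30.8% called; median -0.17; 3 to 9 lower without 1 library): TXNIP differed by -0.60, GADD45A, a growth arrest gene, by -0.50 and KLF6 by -0.33, while CITED2 was higher by 0.35.

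The ATF4 list, the genes of the integrated stress response, split: ATF5 had 43.0 and 48.1 CPM in siUSP15 and 24.6 and 27.9 CPM in siCtrl libraries of set 1, against 82.1 and 79.7 CPM in siUSP15 and 77.8 and 79.5 CPM in siCtrl libraries of set 2, a difference of 0.76 ± 0.09 (adjusted p 9.2e-05). DDIT4 (-0.48) and DDIT3 (-0.36), the stress-induced factor CHOP, were lower, and 9 of 33 were lower and 2 higher in all (33.3% called; 2 to 11 lower without 1 library; 4 by DESeq2). DDIT3 fell in both sets, by 0.62 in set 1 and 0.25 in set 2 on the log2 scale. The lysosome and autophagy list had 9 of 39 lower and 2 higher (28.2% called), the membrane proteins LAMP1 (0.36) and LAMP2 (0.29) against GABARAPL1 (-0.48) and ULK1 (-0.45), and by edgeR the lower count was 0 without siCtrl replicate 1, 2 without siCtrl replicate 3 and up to 11 without siUSP15 replicate 1. p53 targets had 6 of 25 lower and 2 higher (32% called). Their median difference was -0.03, and -0.09 to -0.002 without 1 library, with the fewest called without siCtrl replicate 3. The shares called in the ATF4, lysosome and p53 lists stand beside 12.5% of all genes.

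Several groups showed no share of called differences above the 12.5% of all genes. Interferon response genes had 1 of 40 higher and 1 lower, SAMD9 (0.39) having risen in both sets, by 0.99 and by 0.60 in set 2, and PARP14 being lower (-0.36), calls lost without any 1 of 6 and 5 libraries. NF-kB genes had 2 of 32 higher, NFKB1 (0.57) and NFKBIB (0.41, a call lost without any 1 of 4 libraries). TGF-beta ligands, receptors and SMADs had 2 of 19 lower, TGFBR3 and ACVR2B, both calls lost without any 1 of 5 or more libraries. The separate list of TGF-beta target genes lay above that share, with 2 of 26 higher and 3 lower (19.2% called). DESeq2 called 1 higher and 2 lower. FN1 (-1.32), BHLHE40 (-0.47) and LTBP3 (-0.48, not called by DESeq2) were lower, and BAMBI (0.49) was among the higher ones. Replication-dependent histones had none of 29 by edgeR, DESeq2 or limma-voom (1 higher and 3 lower at an unadjusted p under 0.05). Homologous recombination and Fanconi anemia genes had 2 of 43 higher and 2 lower. Among the 7 genes listed beside USP15 as its paralogs and partners, USP11, TAF15, USP4 and MCM5 had adjusted p values of 0.059 to 0.075.

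The other line of the series, KBM7, a near-haploid chronic myeloid leukemia line with 2 siUSP15 and 2 siCtrl libraries, was fitted alone, and 4345 of 14980 genes passed (29%). Of 1700 genes with a called difference that were tested there, 991 (58.3%) had the sign of set 1, against 51.3% of all 12694 genes tested in both lines. Cholesterol synthesis was lower in KBM7 as in set 1, with 30 of 32 members falling. HMGCS1 had 173 and 214 CPM in siUSP15 and 277 and 281 CPM in siCtrl libraries of KBM7, a log2 fold change of -0.53 beside -0.70 in set 1 and -0.06 in set 2. Zinc finger genes had 43 of 155 higher and 1 lower in KBM7, and ribosome biogenesis genes 5 and 3 of 43. Globins went the other way, with 3 of 5 falling, and interferon response genes rose in 48 of 51. These are values side by side, and the lines were not tested against each other.

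Transcript length and base composition went weakly with the response. Of the genes tested, 98.4% had a Gencode transcript, and the longest one of each had a median of 3355 bases over those with a called higher difference and 5130 over those with a lower one, against 3480 over all. The GC content had medians of 49.2% with a called higher difference and 46.8% with a lower one, against 47.8% over all. Across 14104 genes Spearman's rho between length and log2 fold change was -0.07 in set 1 and 0.07 in set 2. Between GC content and log2 fold change it was 0.08 and 0.11. For the difference between the sets, rho was -0.10 with length and 0.02 with GC content. Longer genes hold more counts, and genes are not independent replicates.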

How the data were processed

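RNA-seq of 8 K562 libraries was analysed. Per the labels and the study's methods, the authors made TruSeq libraries, aligned reads to hg38 with TopHat2 (version 2.1.0), counted them per gene and deposited raw counts beside normalised columns, which were not used. The submitters' processing notes also name HTSeq, edgeR and limma; whether counting used strand is not given in the sources used here, so reads of overlapping genes cannot be told apart.

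Deposited counts were filtered (filterByExpr over set and siRNA), scaled by TMM and fitted with edgeR 4.0.16 (R 4.3.3) with 1 mean per set and siRNA. Quasi-likelihood tests gave the change in each set and the difference between them, adjusted by Benjamini-Hochberg at 0.05 over 14337 genes. SE is the log2 fold change over the root of F. KBM7 counts were fitted alone. DESeq2 1.42.0 and limma-voom 3.58.1, RLE and upper-quartile scaling, other filters and thresholds, a robust spread, a replicate block and each library left out were alternatives. Scripts were tested on simulated data. Some list members, counted with their lists, are not reported here by name.

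Replicates differed beyond sampling noise (chi-square per degree of freedom 1.73 to 4.94), so none was a copy. Precision is limited by 2 libraries per group and 23020401 to 43566543 counts each.

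Named genes were: the 8 genes of the USP15 list; the 10 largest positive and negative called differences at an average log2 CPM of at least 1 in which every siUSP15 minus siCtrl pair of set 1 lay beyond every pair of set 2 (met by 41.7% of all genes); genes called in both sets in opposite directions; and, for each list with a called member, the 4 lowest p values. Other cholesterol, zinc finger and marker genes were named after their values were seen. The split of the libraries, the 41 gene lists and the rules were chosen with earlier results of these data known.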

Additional observations from a re-analysis of the deposited data

Results flagged for a closer look

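The response to siUSP15 differed between the 2 library sets of K562, by the test of the difference itself, for 1791 genes. Among those named in the report, with the log2 fold change of set 1 minus that of set 2, were FN1 (-1.32), RP11-86K22.2 (-1.52), YPEL4 (-1.64), NFATC4 (-1.55), CORO1A (-1.56), MYO3B (-1.85), DCHS2 (-1.61), ERBB3 (-1.29), IL10RA (-1.72) and NOTCH2NL (-1.34), which had lower values in set 1. NEFH (1.21), HBZ (1.01), ZNF17 (0.90), ZNF583 (1.04), ZIK1 (1.21), ZNF416 (1.17), RP11-474N24.6 (0.95), RP11-38M15.11 (0.95), ACSS1 (1.19) and CNTF (1.01) had higher ones. The 5 genes with opposite signs in the sets were NABP1 (-0.55), EPAS1 (-0.52), ANK3 (-0.70), LGALS1 (-0.45) and HBA1 (0.49). USP15 itself, the targeted gene, differed by -0.32. No cause was tested.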

How the results depend on the processing

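With DESeq2 1132 genes differed between the sets (724 higher, 408 lower), with an adjusted p under 0.01 537 and under 0.1 2818. Genes changed in set 1 numbered 3317 under 0.01, and genes changed in set 2 numbered 88 under 0.01, 582 under 0.1 and 639 with no filter on low counts. With no filter the differences split into 1530 higher and 772 lower, against 970 and 821. Leaving out 1 library gave 479 to 2794 differences, 3105 to 5357 genes changed in set 1 and 40 to 567 in set 2. RLE or upper-quartile scaling, limma-voom, a robust spread, an average of at least 1 CPM, each set fitted alone and the omission of mitochondrially encoded genes kept these counts within 1.5 times. With the replicate number as a block, 2362 genes differed, 5448 changed in set 1 and 642 in set 2. Deviations of same-numbered libraries correlated at 0.08 in set 1 and 0.14 in set 2. With 2 replicate numbers per set, these values cannot decide whether same-numbered libraries were paired. The scalings moved the median of all genes by 0.01 or less. Of 148 named genes with a called difference, 79 kept their call without any 1 library and 134 under all other alternatives; 62 lost it without siCtrl replicate 1 and 50 without siCtrl replicate 3, and no named value reversed where it or its alternative was called. USP15 left was 45.3% in set 1 and 58.1% in set 2 by library totals. The cause of these shifts was not tested. With 2 libraries per group, the set, its handling and any batch cannot be told apart.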
